A study of Mus musculus with 10 samples.

Results

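Described here are 47 genes of the lysosome, followed through the loss and return of estradiol (E2) in ER-Hoxa9-Lys-GFP cells, cultured mouse myeloid progenitors. The genes come from a fixed list of lysosomal enzymes, membrane proteins, transcription factors and proton pump subunits. They were chosen by name and function and not by any threshold on measured values, but with earlier results of these data known. All 47 were found among the 26206 genes that could each be given 1 transcript, and 46 passed a filter of at least 1 RPKM in at least 2 libraries, which 12989 genes passed in all. RPKM is the number of reads on a transcript corrected for transcript length and library depth, so levels can be compared between genes. The gene that did not pass was Ctsh, a cathepsin, at 0.053 to 0.556 RPKM in the 10 libraries.

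The lysosome is the acidic compartment in which cells break down proteins, glycans and lipids. A proton pump, the vacuolar ATPase, acidifies it, and hydrolases inside it do the cutting. Membrane proteins such as LAMP1 line it, and others move products out. TFEB and TFE3 are transcription factors of the MiT/TFE family that bind the E-box CACGTG in promoters of lysosomal genes. Granulocytes and macrophages are rich in lysosomes and lysosome-related granules, which they use to digest what they engulf.

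The cells were of C57BL/6 origin and carry an estrogen receptor fusion of Hoxa9 (ER-Hoxa9), which as background holds such cells as progenitors while E2 is present. Labels give 5 groups of 2 libraries: untreated cells kept in E2, cells without E2 for 24, 40 or 72 h that then had E2 back for 96, 80 or 48 h, and cells without E2 for 120 h. The groups are called here by the time without E2, so the 24 h, 40 h and 72 h groups are not points of one time course: each also spent a different time with E2 restored. The GFP reporter, the Hoxa9 fusion, serum and SCF conditioned medium were common to all 5 groups, and all results come from 1 named cell line. Nothing in the labels says whether the 2 libraries of a group are separate cultures. The p-values therefore cover the spread between these libraries, which may be technical. By its title, the series concerns irreversible commitment to myeloid differentiation.

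Each library held 173621000 to 204384000 reads as its RPKM denominator. The 2 libraries of the 120 h group differed from each other more than those of any other group, with a median SD of 0.175 on the log2 scale against 0.043 to 0.084. Marker lists were chosen with earlier results of these data known, so they describe the cells and are no check on the label. In the 120 h group 7 of 7 progenitor markers were lower than in untreated cells, against 52.7% of all genes tested. Their summed RPKM was 1589 to 1615 untreated and 92.9 to 125 at 120 h. All 10 neutrophil markers were higher at 120 h, against 27.5% of all genes tested. They summed to 50.3 to 58.0 RPKM untreated, 439 to 690.1 at 72 h and 23881 to 24355 at 120 h. The 10 of 14 monocyte and macrophage markers that passed the filter were also higher at 120 h. The 13 markers of that list found in the files summed to 6.67 to 7.12 RPKM untreated, 675 to 751 at 72 h and 1738 to 1817 at 120 h, while Vsig4 stayed at or under 0.028 RPKM. Eosinophil, basophil and mast cell markers summed to 187 to 212 RPKM untreated and 1357 to 1537 in the 72 h group, most of it from Prg2. Group means of Prg2 were 24.6 RPKM untreated and 1395 at 72 h. Of the 6 tested, 4 were higher at 72 h and 2 lower, against 21.5% and 22.3% of all genes. The 2 lower were Mcpt8 (means of 48.9 untreated and 11.2 at 72 h) and Cpa3 (125 and 31.3). The lysosome genes are measured in bulk RNA, so more cells of a type and more RNA per cell cannot be told apart, and the part of these marker changes in the results below was not tested.

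Promoter windows from RefSeq (GRCm38.p6, 250 bases before to 50 after a start) were given for 41 of the 47 genes. The letters CACGTG, which read the same on both strands, occurred in a window of 14 of the 41 genes (34.1%), against 12.1% of the 8859 tested genes with a window. The longer palindrome TCACGTGA, which contains CACGTG, occurred in 7 of the 41 (17.1%) and in 2.30% of those 8859. Lamp1 had the most, with 4 copies in the 75 bases before its start. Genes with these letters were found both among those that rose and among those that fell, and for that reason the sequences given are the Lamp1 stretch and 30-base windows of 5 genes with a TCACGTGA close to the start of the transcript measured and of the 3 genes with CACGTG that fell at 120 h, with the searched letters in capitals:
Lamp1, chr8:13159086-13159160, plus strand: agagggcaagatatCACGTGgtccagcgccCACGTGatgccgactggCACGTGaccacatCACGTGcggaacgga
Atp6v0d1, chr8:105566050-105566079, minus strand: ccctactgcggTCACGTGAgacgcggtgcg
Atp6v1a, chr16:44139373-44139402, minus strand: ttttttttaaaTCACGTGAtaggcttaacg
Ctsd, chr7:142387908-142387937, minus strand: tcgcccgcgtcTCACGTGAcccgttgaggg
Mcoln1, chr8:3500462-3500491, plus strand: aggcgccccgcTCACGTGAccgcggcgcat
Gla, chrX:134601182-134601211, minus strand: tgagatctcggTCACGTGAgcaactctcgg
Glb1, chr9:114401018-114401047, plus strand: ctgcttctgagtCACGTGgcctacagaggc
Gaa, chr11:119267811-119267840, plus strand: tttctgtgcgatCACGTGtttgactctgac
Naglu, chr11:101070009-101070038, plus strand: caaccttcaggtCACGTGgcccgaggtcgg
Atp6v0d1, Atp6v1a, Ctsd, Mcoln1 and Gla carry TCACGTGA, and Glb1, Gaa and Naglu carry CACGTG preceded by T, as in TCACGTGA, but not followed by A. At 120 h without E2, 11 of the 14 genes with CACGTG were higher than in untreated cells and 3 were lower (median log2 fold change 0.86), and among the 27 tested genes with a window and no CACGTG 24 were higher and 1 was lower (median 1.40). The windows of Cln3, Ctsa and Lgmn with CACGTG lie at RefSeq starts 2581, 872 and 721 bases downstream of the start of the transcript measured. A match describes the letters of the window and is not evidence of a binding site. No CACGTG was present in the windows of Tfeb or Tfe3 themselves, or of the 6 lipid genes that had a window.

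Continuous loss of E2 raised most of the lysosome genes above their level in untreated cells. At 120 h 40 of 46 were higher and 4 lower (Glb1, Gaa, Manba and Naglu), and 2 were not called (Gm2a and Cd63). A gene is called where its Benjamini-Hochberg (BH) adjusted p from limma, over all 12989 genes, is under 0.05. Over all genes tested 80.3% were called, 27.5% higher and 52.7% lower. Both 120 h libraries were above both untreated libraries in 41 of the 46 and below in 5, against 31.4% and 57.6% of all genes. At least 2-fold higher were 27 of the 46 and at least 2-fold lower 2, against 14.4% and 25.3% of all genes. The median log2 fold change of the 46 was 1.35, and that of all genes was -0.36. Fold changes here are differences of log2(RPKM + 1), which understate the change of genes with low values. With libraries scaled by median-of-ratios, which moves the median of all genes to -0.001 and the share of higher genes among all called from 34.3 to 50.5%, 42 of the 46 were higher and 2 lower.

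**Figure D1:**
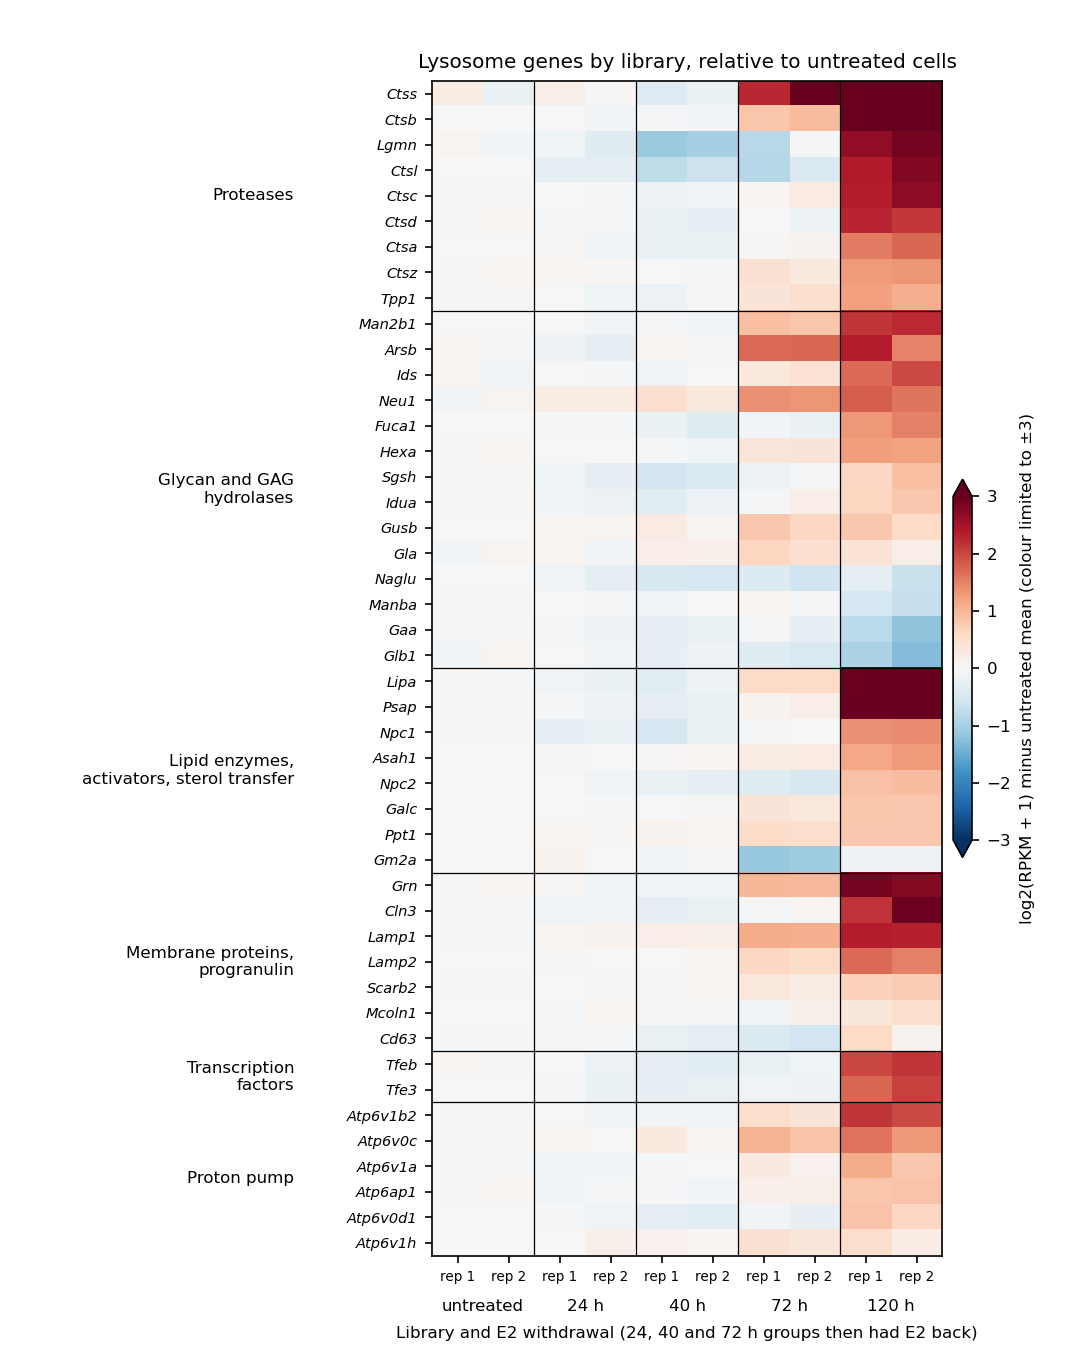
Each row is 1 of the 46 lysosome genes that passed the filter, each column 1 library, and colour gives log2(RPKM + 1) minus the mean of the untreated libraries, limited to 3 in either direction. Most genes are red in both 120 h libraries, Glb1, Gaa, Manba and Naglu are blue there, and the 24 h columns are close to white.

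Together the 47 genes made up 0.575 and 0.586% of the RPKM of coding genes in untreated cells and 2.196 and 2.402% at 120 h. Their summed RPKM was 2479 and 2568 in untreated cells, 2512 and 2434 at 24 h, 2364 and 2314 at 40 h, 3083 and 2977 at 72 h, and 9065 and 8930 at 120 h. In untreated cells Cd63 (mean 304 RPKM), Ctsd (265) and Psap (217) stood highest. At 120 h Psap (1817) and Ctsd (1224) led, followed by Grn (544) and Ctss (519). Psap and Ctsd together held 18.7 and 19.4% of the summed RPKM of the 47 in untreated cells and 33.5 and 34.04% at 120 h.

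**Figure D2:**
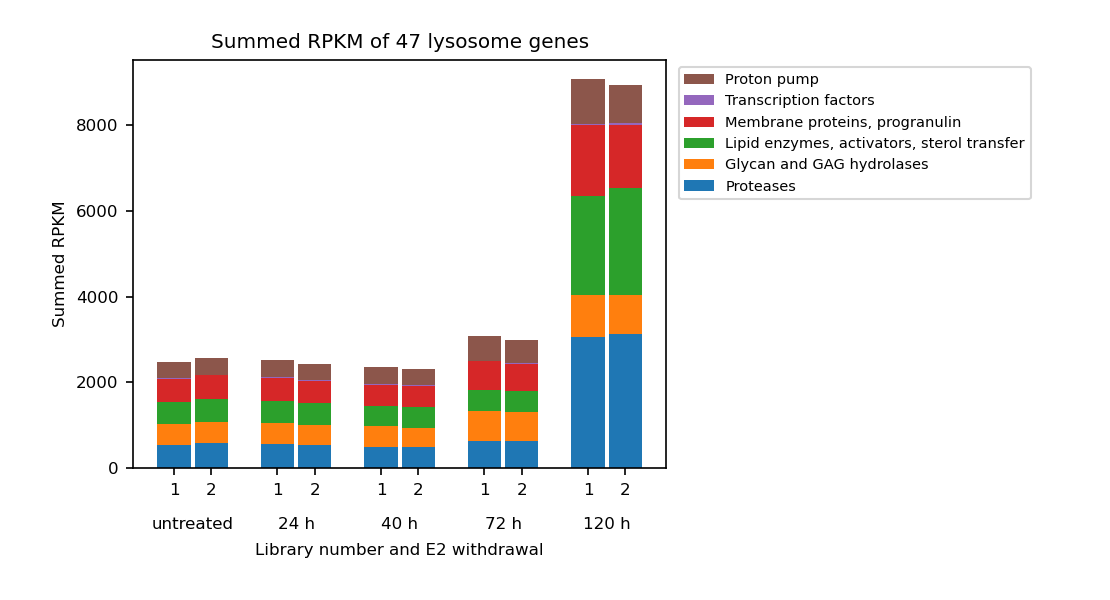
Bars give the summed RPKM of the 47 lysosome genes in each of the 10 libraries, divided by role. The untreated, 24 h and 40 h libraries lie between 2314 and 2568, the 72 h libraries at 3083 and 2977, and the 120 h libraries at 9065 and 8930.

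The proteases rose most. All 9 tested were higher at 120 h than in untreated cells, each by at least 2-fold, with a median log2 fold change of 2.51. Ctss encodes cathepsin S, which trims the invariant chain during antigen presentation. The gene (ENSMUSG00000038642.10) lies at chr3:95526786-95556403 on the plus strand of GRCm38. It measured 3.99 and 2.69 RPKM in untreated cells, 3.86 and 3.39 at 24 h, 2.27 and 2.73 at 40 h, 19.7 and 34.1 at 72 h, and 439 and 598 at 120 h. Its 120 h libraries were far above all others and its 72 h libraries lay between, with no overlap. The group mean at 120 h was 155 times the untreated mean (log2 fold change 6.90, SE 0.26, limma adjusted p = 1.37e-07), the widest change among the 46 genes.
Ctsb, the cysteine protease cathepsin B, went from 34.8 and 35.5 RPKM in untreated cells, 35.7 and 33.3 at 24 h, 33.95 and 33.2 at 40 h, 63.2 and 68.7 at 72 h, and 419.6 and 363 at 120 h. The 72 h and 120 h libraries each stood apart from the untreated pair (log2 fold change 3.44, SE 0.09, limma adjusted p = 2.35e-08 at 120 h). Lgmn encodes legumain, an asparaginyl endopeptidase that processes other cathepsins. It was at 22.5 and 20.2 RPKM in untreated cells, 19.5 and 16.4 at 24 h, 9.22 and 10.1 at 40 h, 11.6 and 20.9 at 72 h, and 139 and 162 at 120 h. The 40 h libraries were the lowest and the 120 h libraries the highest, at 7.06 times the untreated mean (log2 fold change 2.76, SE 0.23, limma adjusted p = 9.47e-06). Ctsl, cathepsin L, measured 17.04 and 16.8 RPKM in untreated cells, 13.6 and 13.6 at 24 h, 9.63 and 10.5 at 40 h, 8.903 and 12.2 at 72 h, and 92.4 and 121 at 120 h. Its 40 h and 72 h libraries overlapped and were under all others. At 120 h it was 6.30 times the untreated mean (log2 fold change 2.57, SE 0.16, limma adjusted p = 1.67e-06).
Tpp1, the tripeptidyl peptidase lost in a form of neuronal ceroid lipofuscinosis, changed least among the proteases: 22.99 and 24.2 RPKM in untreated cells, 23.3 and 21.6 at 24 h, 20.7 and 22.6 at 40 h, 31.00 and 33.6 at 72 h, and 56.8 and 51.2 at 120 h. It was still 2.29 times the untreated level at 120 h (log2 fold change 1.16, SE 0.09, limma adjusted p = 5.83e-06). The other 4 proteases lay between, with log2 fold changes of 2.51 for Ctsc (dipeptidyl peptidase, activator of granule serine proteases), 2.20 for Ctsd (cathepsin D, an aspartic protease), 1.64 for Ctsa (protective protein for the sialidase NEU1) and 1.31 for Ctsz (a carboxypeptidase). Of the exon bases of the Ctsd transcript 38.0% are shared with the annotated gene Gm49369 on the same strand, so their reads cannot be told apart. Ctsb shares 16.3% of its exon bases with Fdft1 and Ctsa 21.7% with Neurl2 and Pltp, on the other strand, and whether the counting used strand is not given in the sources used here. Another coding transcript of Ctsc, of 3220 in place of 2493 bases, was lower in RPKM and already higher at 72 h: 5.27 and 5.73 untreated, 10.8 and 16.5 at 72 h, and 84.2 and 109 at 120 h.

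The glycan and glycosaminoglycan hydrolases split. Of 14, 10 were higher at 120 h than in untreated cells and 4 lower, with a median log2 fold change of 0.74, and the 4 that fell were the only lysosome genes called lower in this comparison. Man2b1 encodes lysosomal alpha-mannosidase and measured 57.2 and 55.9 RPKM in untreated cells, 56.8 and 52.3 at 24 h, 54.5 and 51.8 at 40 h, 106 and 101 at 72 h, and 254 and 271 at 120 h. Its 72 h libraries were above the untreated pair and its 120 h libraries above those, at 4.65 times untreated (log2 fold change 2.20, SE 0.08, limma adjusted p = 1.22e-07). Arsb, which removes sulfate from dermatan and chondroitin sulfate, measured 13.5 and 12.4 RPKM in untreated cells, 11.5 and 10.5 at 24 h, 13.5 and 12.4 at 40 h, 44.4 and 45.1 at 72 h, and 70.8 and 37.98 at 120 h. The 72 h and 120 h libraries overlapped, and the 120 h libraries lay far apart from each other (log2 fold change 1.93, SE 0.23, limma adjusted p = 8.68e-05 at 120 h). Of its exon bases 59.7% are shared with 2 annotated genes on the other strand.
Ids, the iduronate sulfatase of Hunter syndrome, was low throughout, at 0.691 and 0.502 RPKM in untreated cells, 0.591 and 0.528 at 24 h, 0.476 and 0.584 at 40 h, 0.9700 and 1.14 at 72 h, and 4.21 and 5.29 at 120 h. Its ratio of group means was 7.96 at 120 h, while the log2 fold change of 1.85 (SE 0.12, adjusted p = 2.08e-06 by limma with BH adjustment) is small because of the 1 RPKM added to each value. Neu1, the sialidase held in a complex with CTSA, was at 15.98 and 18.2 RPKM in untreated cells, 19.9 and 20.1 at 24 h, 24.2 and 20.95 at 40 h, 45.7 and 44.3 at 72 h, and 62.4 and 53.98 at 120 h. It was higher in each group than in untreated cells, without overlap at 24, 40, 72 or 120 h, but called at 72 h and 120 h and not at 24 h or 40 h (log2 fold change 1.71, SE 0.10, limma adjusted p = 1.69e-06 at 120 h).
Glb1, the beta-galactosidase whose activity marks senescent cells in the common staining assay, fell. It measured 45.7 and 51.97 RPKM in untreated cells, 47.97 and 45.8 at 24 h, 41.2 and 43.8 at 40 h, 37.4 and 35.3 at 72 h, and 24.9 and 19.2 at 120 h, with the 120 h libraries below all others (log2 fold change -1.12, SE 0.12, limma adjusted p = 4.76e-05). Gaa, the acid alpha-glucosidase that degrades glycogen and is lost in Pompe disease, measured 54.2 and 57.1 RPKM in untreated cells, 54.5 and 50.1 at 24 h, 45.1 and 47.5 at 40 h, 53.6 and 46.6 at 72 h, and 31.4 and 23.4 at 120 h. Its 120 h libraries were again the lowest, at 0.49 times untreated (log2 fold change -1.01, SE 0.14, limma adjusted p = 0.00016).
Manba, the beta-mannosidase, measured 34.6 and 36.9 RPKM in untreated cells, 35.8 and 35.01 at 24 h, 32.9 and 35.5 at 40 h, 37.3 and 34.6 at 72 h, and 24.6 and 21.9 at 120 h. The 120 h libraries were below the rest (log2 fold change -0.60, SE 0.09, limma adjusted p = 0.000224). Naglu, which cuts N-acetylglucosamine from heparan sulfate, measured 21.9 and 21.96 RPKM in untreated cells, 20.3 and 17.6 at 24 h, 15.3 and 15.1 at 40 h, 16.1 and 14.1 at 72 h, and 18.03 and 13.3 at 120 h. All its 40 h, 72 h and 120 h libraries were under the untreated pair, and the 120 h values overlapped those of 40 h and 72 h (log2 fold change -0.47, SE 0.14, limma adjusted p = 0.0113 at 120 h). With median-of-ratios scaling Naglu (-0.06) and Manba (-0.18) were no longer called, while Glb1 and Gaa still were.
Gla, the alpha-galactosidase of Fabry disease, changed least: 10.2 and 11.4 RPKM in untreated cells, 11.5 and 10.2 at 24 h, 12.6 and 12.03 at 40 h, 17.4 and 15.8 at 72 h, and 14.8 and 12.6 at 120 h. Its 72 h libraries were the highest. At 120 h it was called (log2 fold change 0.31, SE 0.11, limma adjusted p = 0.0236), but not without untreated library 1 (0.24) or 120 h library 1 (0.20). The remaining rises were 1.40 for Fuca1, 1.23 for Hexa, 0.76 for Sgsh, 0.72 for Idua and 0.69 for Gusb, each a log2 fold change. Sgsh shares 21.9% of its exon bases with Card14 on the other strand.

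Among the 8 genes of lipid breakdown, 7 were higher at 120 h and Gm2a was not called, with a median log2 fold change of 1.05. Lipa encodes the acid lipase that frees cholesterol and fatty acids from lipoproteins. The gene (ENSMUSG00000024781.16) lies at chr19:34492318-34527474 on the minus strand of GRCm38. It measured 13.96 and 13.4 RPKM in untreated cells, 12.7 and 11.7 at 24 h, 10.9 and 12.1 at 40 h, 20.8 and 21.1 at 72 h, and 122 and 133 at 120 h, and its 120 h libraries were 9.34 times the untreated mean (log2 fold change 3.13, SE 0.08, limma adjusted p = 2.03e-08). Psap encodes prosaposin, the precursor of the saposins that present sphingolipids to their hydrolases. The gene (ENSMUSG00000004207.14) lies at chr10:60277628-60302597 on the plus strand of GRCm38. It measured 210.3 and 223 RPKM in untreated cells, 209 and 195 at 24 h, 179 and 185 at 40 h, 234 and 248 at 72 h, and 1744 and 1889 at 120 h, and at 120 h it was the most abundant of the 47 genes in both libraries (log2 fold change 3.06, SE 0.10, limma adjusted p = 7.68e-08). Its 72 h libraries were above the untreated pair by a margin that was not called (0.15, adjusted p = 0.267 by limma with BH adjustment).
Npc1 and Npc2 work together to hand cholesterol out of the lysosome. Npc1, the membrane partner, measured 8.24 and 8.71 RPKM in untreated cells, 7.02 and 7.23 at 24 h, 5.697 and 7.11 at 40 h, 8.27 and 8.55 at 72 h, and 23.6 and 24.5 at 120 h (log2 fold change 1.40, SE 0.10, limma adjusted p = 3.64e-06 at 120 h). Npc2, the soluble partner, measured 75.97 and 77.97 RPKM in untreated cells, 75.8 and 71.5 at 24 h, 65.9 and 63.4 at 40 h, 59.99 and 55.1 at 72 h, and 142 and 146 at 120 h. It was lowest at 72 h and highest at 120 h, without overlap between those groups and the untreated pair (log2 fold change 0.90, SE 0.08, limma adjusted p = 1.22e-05 at 120 h).
Asah1, the acid ceramidase, rose at 120 h: 54.2 and 52.7 RPKM in untreated cells, 54.5 and 53.6 at 24 h, 54.9 and 55.6 at 40 h, 62.9 and 63.8 at 72 h, and 120.4 and 130.0 at 120 h (log2 fold change 1.21, SE 0.07, limma adjusted p = 1.4e-06). Gm2a encodes the activator that lifts the ganglioside GM2 for its hydrolase. The gene (ENSMUSG00000000594.7) lies at chr11:55098115-55113029 on the plus strand of GRCm38. Its values were 119 and 119.6 RPKM in untreated cells, 129 and 120.3 at 24 h, 111 and 116 at 40 h, 53.3 and 56.1 at 72 h, and 108 and 108 at 120 h. The 72 h libraries stood alone, at 0.46 times the untreated mean, and the 120 h libraries lay slightly under the untreated pair (log2 fold change -0.14, SE 0.08, limma adjusted p = 0.116). With median-of-ratios scaling that last difference turned to 0.30 and was called. Ppt1 (a palmitoyl thioesterase) and Galc (the galactosylceramidase of Krabbe disease) rose by 0.81 and 0.82 at 120 h.

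Of the 7 membrane proteins and progranulin, 6 were higher at 120 h, with a median log2 fold change of 1.61, and Cd63 was not called. Lamp1, whose promoter is shown above, encodes a main glycoprotein of the lysosomal membrane. The gene (ENSMUSG00000031447.7) lies at chr8:13159161-13175338 on the plus strand of GRCm38. It measured 75.6 and 73.1 RPKM in untreated cells, 78.9 and 79.4 at 24 h, 85.97 and 84.3 at 40 h, 163 and 159 at 72 h, and 384 and 376 at 120 h (log2 fold change 2.34, SE 0.07, limma adjusted p = 5.2e-08 at 120 h). The libraries of all 5 groups were separate, in the order of time without E2, but Lamp1 was not called at 24 h or 40 h. Both libraries were above the untreated pair in 16.9% of all genes at 24 h and 29.2% at 40 h. Lamp2, its relative that is needed for fusion with autophagosomes, measured 43.05 and 43.8 RPKM in untreated cells, 44.7 and 43.01 at 24 h, 43.9 and 45.9 at 40 h, 67.3 and 63.8 at 72 h, and 144 and 126 at 120 h (log2 fold change 1.61, SE 0.08, limma adjusted p = 7.14e-07 at 120 h). Grn encodes progranulin, a secreted protein that is cut into granulins in the lysosome, and it measured 72.8 and 79.98 RPKM in untreated cells, 78.5 and 69.3 at 24 h, 72.3 and 72.2 at 40 h, 153 and 152 at 72 h, and 564 and 524 at 120 h. Its 120 h libraries were 7.12 times the untreated mean (log2 fold change 2.82, SE 0.09, limma adjusted p = 7.3e-08).
Cln3, a membrane protein lost in juvenile neuronal ceroid lipofuscinosis, measured 6.09 and 5.64 RPKM in untreated cells, 5.27 and 5.48 at 24 h, 4.74 and 4.87 at 40 h, 5.54 and 6.23 at 72 h, and 29.99 and 51.6 at 120 h. It was called against untreated cells at 120 h and not at 24, 40 or 72 h, and its 120 h libraries differed widely from each other (log2 fold change 2.56, SE 0.21, limma adjusted p = 8.15e-06). Cd63 is a tetraspanin of late endosomes, also found on azurophil granules. It was the most abundant of the 47 genes in untreated cells and measured 297 and 310.0 RPKM in untreated cells, 292 and 295 at 24 h, 261 and 253 at 40 h, 225 and 204 at 72 h, and 457 and 327 at 120 h. The 72 h libraries were the lowest and the 120 h libraries the highest, and the latter were not called against untreated cells (log2 fold change 0.35, SE 0.15, limma adjusted p = 0.0649). Without 120 h library 2 the difference was 0.59 and called. Scarb2, the receptor that carries glucocerebrosidase to the lysosome, and Mcoln1, its calcium channel, had log2 fold changes of 0.74 and 0.44 at 120 h, both called.

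Both transcription factors rose at 120 h and were not called at 24, 40 or 72 h. Tfeb measured 4.33 and 3.94 RPKM in untreated cells, 4.202 and 3.54 at 24 h, 3.19 and 3.13 at 40 h, 3.38 and 3.71 at 72 h, and 19.5 and 21.8 at 120 h, and its 120 h libraries were 4.99 times the untreated mean (log2 fold change 2.07, SE 0.10, limma adjusted p = 4.9e-07). Tfe3 measured 5.84 and 5.82 RPKM in untreated cells, 5.54 and 4.95 at 24 h, 4.79 and 4.82 at 40 h, 5.23 and 5.17 at 72 h, and 21.4 and 27.2 at 120 h (log2 fold change 1.88, SE 0.11, limma adjusted p = 1.48e-06 at 120 h). In the 40 h and 72 h groups every library of both genes was below both untreated libraries, by margins that were not called. TFEB and TFE3 are controlled largely through phosphorylation and their place in the cell, which RNA does not show.

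All 6 listed subunits of the proton pump were higher at 120 h, with a median log2 fold change of 0.90. The pump has a catalytic V1 sector, in which A and B subunits alternate, and a V0 sector in the membrane. Atp6v1b2, the widely used B subunit, measured 53.7 and 50.2 RPKM in untreated cells, 51.1 and 48.2 at 24 h, 48.7 and 49.2 at 40 h, 75.2 and 68.5 at 72 h, and 233 and 209 at 120 h, and rose 4.25-fold in group means at 120 h (log2 fold change 2.06, SE 0.09, limma adjusted p = 2.58e-07). Atp6v1a, the catalytic A subunit, measured 34.5 and 33.2 RPKM in untreated cells, 32.1 and 31.9 at 24 h, 32.6 and 33.8 at 40 h, 40.9 and 37.2 at 72 h, and 74.1 and 60.5 at 120 h (log2 fold change 0.96, SE 0.10, limma adjusted p = 3.8e-05 at 120 h). The RPKM ratio of Atp6v1a to Atp6v1b2 was thus 0.64 and 0.66 untreated, 0.63 and 0.66 at 24 h, 0.67 and 0.69 at 40 h, 0.54 and 0.54 at 72 h, and 0.32 and 0.29 at 120 h.
Atp6v0c, the proteolipid of the membrane ring, measured 134 and 141 RPKM in untreated cells, 146 and 139 at 24 h, 169 and 146 at 40 h, 284 and 250.3 at 72 h, and 426 and 338 at 120 h (log2 fold change 1.46, SE 0.14, limma adjusted p = 1.98e-05 at 120 h). Atp6ap1, an accessory subunit, measured 78.1 and 83.7 RPKM in untreated cells, 76.4 and 78.3 at 24 h, 78.2 and 76.02 at 40 h, 90.00 and 91.7 at 72 h, and 144 and 147 at 120 h (log2 fold change 0.84, SE 0.07, limma adjusted p = 1.36e-05 at 120 h). Atp6v1h, a regulatory V1 subunit, changed least and measured 29.7 and 29.7 RPKM in untreated cells, 29.9 and 32.9 at 24 h, 32.5 and 31.1 at 40 h, 41.1 and 38.4 at 72 h, and 43.03 and 34.96 at 120 h. Its 72 h and 120 h libraries overlapped (log2 fold change 0.37, SE 0.10, limma adjusted p = 0.00987 at 120 h). Atp6v0d1 had a log2 fold change of 0.74.

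**Figure D3:**
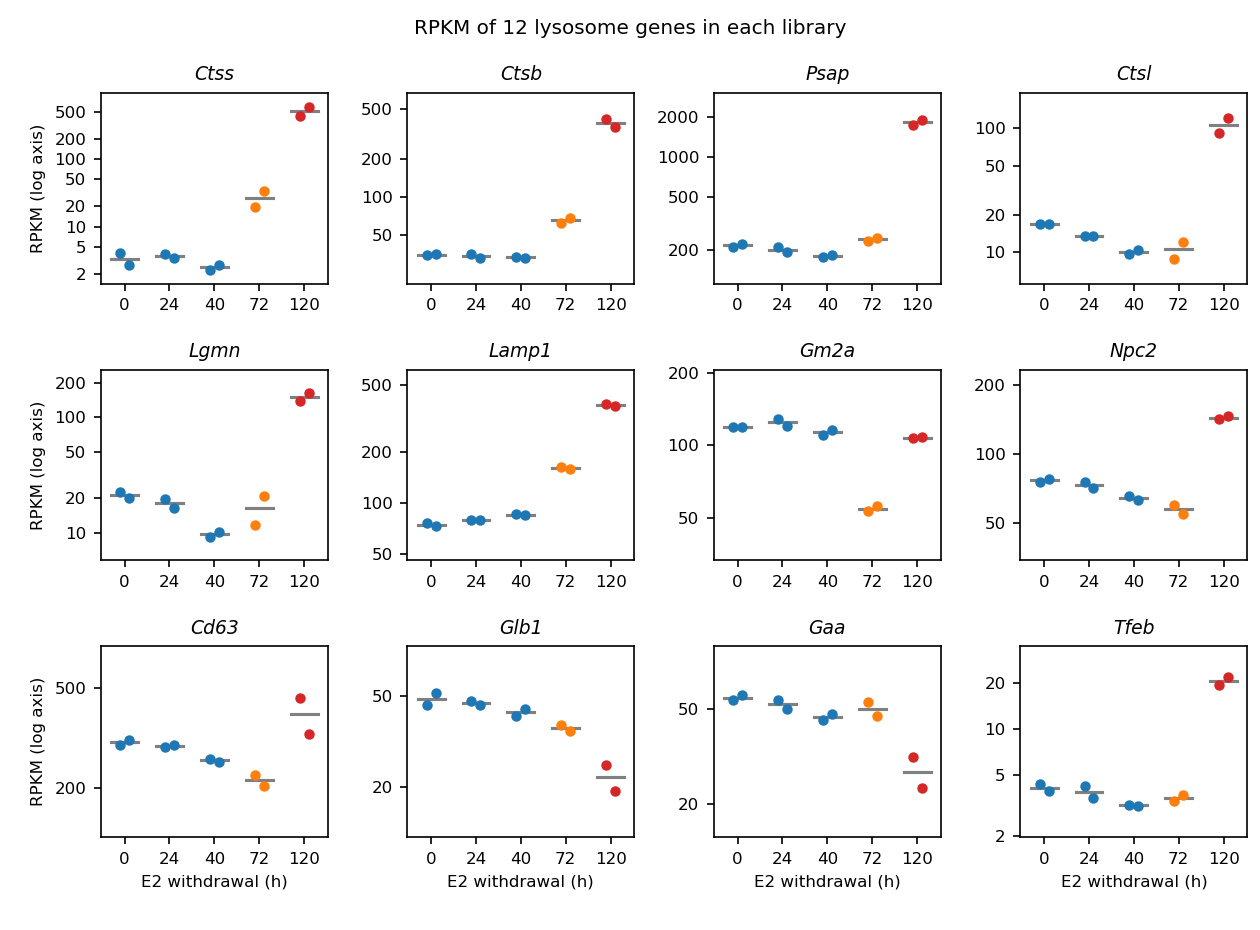
RPKM on a log axis in each of the 10 libraries for 12 lysosome genes, by hours without E2 (24, 40 and 72 h were followed by E2 return), where points are libraries and grey bars group means. Ctss, Ctsb, Psap and Lamp1 are highest at 120 h, Gm2a falls at 72 h alone, Ctsl, Lgmn and Npc2 are lower at 40 or 72 h and highest at 120 h, and Glb1 and Gaa are lowest at 120 h.

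Whether a short loss of E2 left a mark on the lysosome genes after its return was asked in the 24 h and 40 h groups. In the 24 h group 0 of the 46 genes were called by limma, as were 0% of all genes tested, and 0 of the 46 had an unadjusted p under 0.05 (365 of all 12989 did). Their log2 fold changes ran from -0.30 (Ctsl) to 0.22 (Neu1). In 6 of the 46 both 24 h libraries were above both untreated libraries and in 16 both were below, against 16.9% and 27.1% of all genes. No alternative fit called a lysosome gene in this comparison, voom on recovered reads included.
In the 40 h group 2 of the 46 were called, both proteases and both lower: Lgmn (log2 fold change -1.06, SE 0.23, limma adjusted p = 0.043) and Ctsl (log2 fold change -0.70, SE 0.16, limma adjusted p = 0.0485). Over all genes 4.3% were called, 0.932% higher and 3.36% lower. Both calls lie close to the threshold: each was lost when either untreated, either 24 h or either 40 h library was left out, while the fold changes stayed between -1.14 and -0.99 for Lgmn and between -0.75 and -0.64 for Ctsl. The spread shared by the fit includes that of the 120 h libraries, and without that group 11 of the 46 were called, 9 lower and 2 higher. The 4.3% of all genes is that of the main fit, and no such share is given here for the fit without the 120 h group. The 11 are therefore not read as particular to the lysosome genes. In 27 of the 46 both 40 h libraries were below both untreated libraries and in 9 both were above, against 33.3% and 29.2% of all genes. Lamp1 and Neu1 were the 2 called higher without the 120 h group, and by the shared fit they were at 0.19 and 0.38 (adjusted p = 0.205 and 0.0874 by limma with BH adjustment). Progenitor markers summed to 1301 to 1442 RPKM in the 40 h group, and Ly6c2, a monocyte marker, was at 37.6 and 25.8 RPKM against 0.571 and 0.683 untreated.

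The 72 h group, with 48 h of E2 restored, was compared with untreated cells; no library was taken at the end of the 72 h without E2, so changes from before and after its return cannot be told apart. Of the 46 genes 22 were higher and 6 lower, where 21.5% of all genes were higher and 22.3% lower (43.9% called). Called and at least 2-fold higher were 4 and at least 2-fold lower 1, against 3.78% and 5.57% of all genes. Both 72 h libraries were above both untreated libraries in 27 of the 46 and below in 12, against 41.4% and 39.4%. The median log2 fold change was 0.18, and 0.018 over all genes. Ctss rose most (log2 fold change 2.65, SE 0.26, limma adjusted p = 0.000103), followed by Arsb (1.72), Neu1 (1.35), Lamp1 (1.10), Grn (0.99), Atp6v0c (0.95), Ctsb (0.89) and Man2b1 (0.86). These are a protease of antigen presentation, glycan hydrolases, a membrane protein, progranulin, a pump subunit and 1 further cathepsin, so every role but the transcription factors and lipid genes is among them. Lipa (0.58) and Ppt1 (0.54) led the lipid genes.
Lower at 72 h were Gm2a (log2 fold change -1.11, SE 0.08, limma adjusted p = 1.5e-05), Ctsl (-0.65), Naglu (-0.51), Cd63 (-0.50), Npc2 (-0.41) and Glb1 (-0.41). Gm2a had the steepest fall of the 6, and both of its 72 h libraries were under all 8 others. Not called at 72 h were 18 genes, among them the most abundant at 120 h, Psap (0.15) and Ctsd (-0.07), and also Ctsc (0.15), Ctsa (0.07), Cln3 (0.00), Npc1 (-0.01), Fuca1 (-0.14), Tfeb (-0.18) and Tfe3 (-0.14). Of the 28 calls, 18 held whichever library was left out (16 higher, 2 lower). The other 10 were lost in at least 1 such fit, namely those of Asah1, Atp6v1h, Ctsz, Hexa, Ids and Scarb2, which were higher, and of Cd63, Ctsl, Glb1 and Naglu, which were lower. Their fold changes without untreated library 2 were 0.22 for Asah1, 0.41 for Atp6v1h, 0.28 for Ids, 0.23 for Scarb2, -0.47 for Cd63, -0.66 for Ctsl, -0.32 for Glb1 and -0.51 for Naglu. Those of Ctsz and Hexa without untreated library 1 were 0.32 and 0.30. The 28 calls became 19 and 20 without untreated library 1 or 2, and 20 and 22 without 72 h library 1 or 2. Lgmn, not called (-0.43), was -0.83 and called without 72 h library 2. Markers of neutrophils and monocytes were partly raised in this group, as given above.

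**Figure D4:**
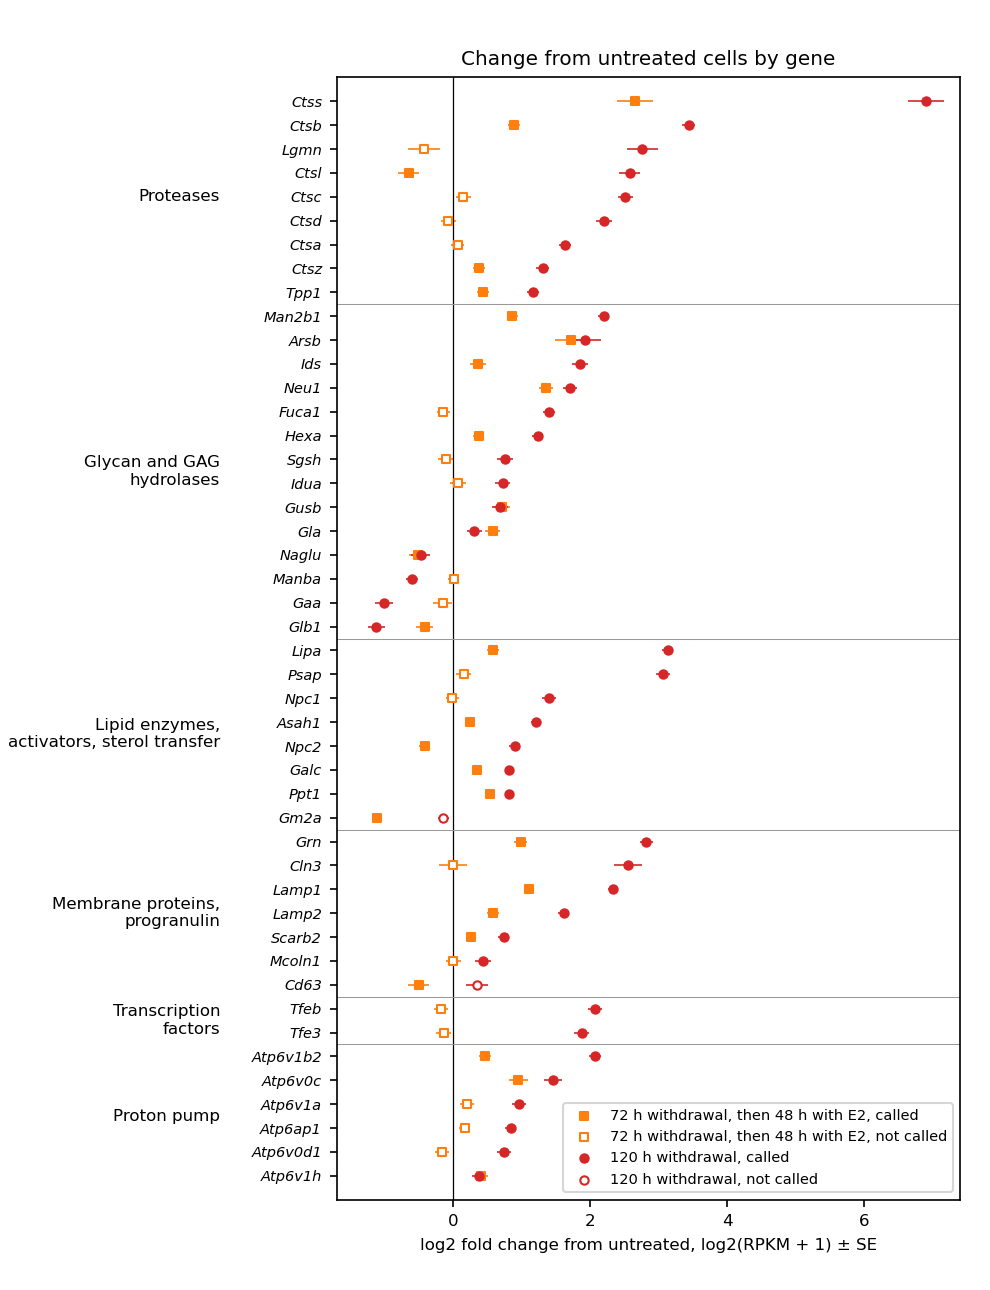
For each of the 46 lysosome genes, grouped by role, squares give the log2 fold change of the 72 h group and circles that of the 120 h group from the same untreated libraries, with SE bars from limma. Open symbols are not called. Ctss reaches 2.65 and 6.90, Gm2a lies at -1.11 and -0.14, and the 120 h circles of Gusb, Naglu and Atp6v1h sit on or beside the 72 h squares.

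The 40 h and 72 h groups, both with E2 restored, were compared directly. Of the 46 genes, 24 were higher at 72 h and 1, Gm2a, was lower (log2 fold change -1.04, SE 0.08, limma adjusted p = 3.96e-05). Over all genes 27.7% were called, 13.9% higher and 13.8% lower. Called and at least 2-fold higher were 3 and at least 2-fold lower 1, against 2.71% and 2.9% of all genes. Both 72 h libraries were above both 40 h libraries in 37 of the 46 and below in 4, against 37.5% and 34.7%. The median log2 fold change was 0.34 for the 46 and 0.020 for all genes. Ctss again differed most (log2 fold change 2.95, SE 0.26, limma adjusted p = 0.000106), with Arsb (1.71), Grn (1.07), Neu1 (0.97), Ctsb (0.95), Man2b1 (0.95) and Lamp1 (0.91). Psap (0.40) and Npc1 (0.35) were called here, and Tfeb (0.13) and Tfe3 (0.10) were not. The calls of Psap and Npc1 were each lost in at least 1 fit with a library left out. The same held for Atp6ap1, Ctsz, Galc, Gla, Gusb, Ids, Scarb2 and Sgsh. By role, 8 of 14 glycan hydrolases, 5 of 8 lipid genes, 4 of 9 proteases, 4 of 7 membrane proteins and progranulin and 3 of 6 pump subunits were higher at 72 h. Without 40 h library 1, 15 were called higher and 1 lower.

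Continuous loss of E2 was last compared with 72 h of loss and 48 h of return. Of the 46 genes, 38 were higher at 120 h and 4 lower (Glb1, Gaa, Manba and Gla), where 77.5% of all genes were called, 26.4% higher and 51% lower. Called and at least 2-fold higher were 21 and at least 2-fold lower 0, against 13% and 19.9% of all genes. Both 120 h libraries were above both 72 h libraries in 38 of the 46 and below in 4, against 29.5% and 55.9%. The median log2 fold change was 0.95 for the 46 and -0.32 for all genes. Every protease, lipid gene, membrane protein and transcription factor tested was higher at 120 h. The widest differences were in Ctss (log2 fold change 4.25, SE 0.26, limma adjusted p = 2.84e-06), Ctsl (3.22), Lgmn (3.19), Psap (2.91), Cln3 (2.55), Lipa (2.55), Ctsb (2.55), Ctsc (2.36), Ctsd (2.27), Tfeb (2.25) and Tfe3 (2.02). Gm2a (0.97), Npc2 (1.31) and Cd63 (0.85) were also higher at 120 h than at 72 h.
The 4 genes not called were Gusb (-0.03), Naglu (0.04), Arsb (0.21) and Atp6v1h (-0.03). Atp6v0c, Mcoln1 and Neu1 were called, but each call was lost in at least 1 fit with a library left out. Leaving out 120 h library 1 gave -0.23 for Arsb and leaving out library 2 gave 0.65, both called, so its direction rests on which of the pair is used. The call of Gla (-0.26) was lost when any untreated, 24 h, 40 h or 72 h library or 120 h library 2 was left out (-0.33 to -0.16), and with median-of-ratios scaling Glb1 (-0.28) and Manba (-0.18) were no longer called, leaving Gaa as the 1 lower gene.

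**Figure D5:**
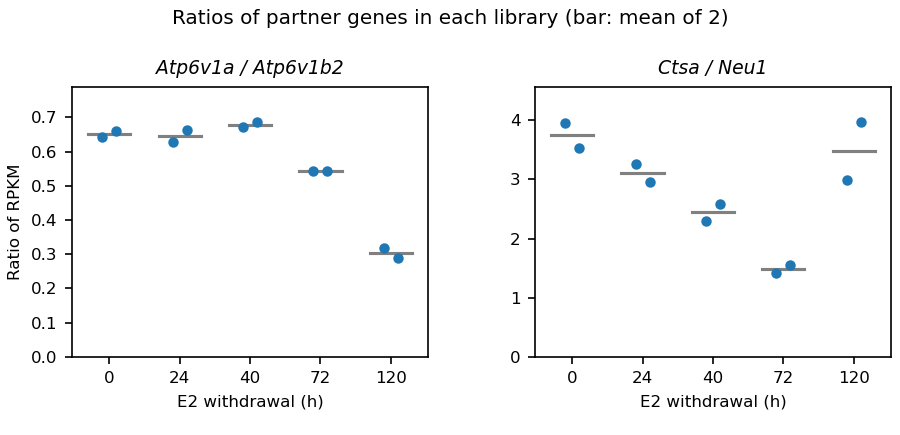
Ratios of RPKM in each library for 2 pairs whose products work together, by hours without E2, where points are libraries and grey bars the mean of each pair of libraries. The Atp6v1a to Atp6v1b2 ratio falls to 0.32 and 0.29 at 120 h, and Ctsa to Neu1 is lowest at 1.42 and 1.55 at 72 h.

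Ctsa and Neu1, whose products share a complex, did not keep their proportion. Their RPKM ratio was 3.96 and 3.53 untreated, 3.26 and 2.96 at 24 h, 2.30 and 2.59 at 40 h, 1.42 and 1.55 at 72 h, and 2.99 and 3.97 at 120 h. The 24 h, 40 h and 72 h libraries each lay below the group before, without overlap, and the 120 h libraries overlapped the untreated pair. The ratio was not tested.

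Other genes of the pathway were taken from lists that do not include the 47. Their counts stand beside 27.5% higher and 52.7% lower (median log2 fold change -0.36) over all genes at 120 h and 21.5% and 22.3% (median 0.018) at 72 h. These shares are those of the main fit. Median-of-ratios scaling raises the all-gene median and the share of higher genes among all called, as given above. Counts under that scaling therefore have a different background from these shares, and more higher genes there are not a stronger result. The lists' medians at 120 h were 0.35 for other hydrolases, 0.52 for other membrane proteins, 0.85 for other pump subunits, 0.15 for sorting, 0.19 for MiT/TFE relatives and regulators and 0.25 for autophagy and fusion. At 72 h they were -0.11, -0.06, 0.29, 0.26, 0.10 and -0.05 in the same order. Of 21 other hydrolases tested 12 were higher and 6 lower (15 and 2 with median-of-ratios scaling), with Ctse (3.82, an aspartic protease), Hgsnat (2.36, heparan sulfate acetyltransferase) and Pld3 (2.22) highest among the called genes and Hyal2 (-1.94, a hyaluronidase) lowest. Ctse is near 0 in untreated cells, at 0.177 and 0.117 RPKM, and at 12.96 and 17.9 RPKM at 120 h. At 72 h the same list had 2 higher and 10 lower. Of 15 other membrane proteins 9 were higher and 2 lower at 120 h (13 and 0 with median-of-ratios scaling), led by Cd68 (4.57), the macrophage marker, Slc11a1 (2.65), a metal transporter of phagosomes, and Laptm5 (1.25), with Tmem175 (-0.49), a potassium and proton channel, lowest. Slc11a1 was at 8.86 and 9.56 RPKM untreated, 1.999 and 3.21 at 72 h and 54.9 and 71.9 at 120 h, so it was lower at 72 h (-1.52) and higher at 120 h.
Of 13 other pump subunits 10 were higher and 1 lower at 120 h (12 and 0 with median-of-ratios scaling), and 8 and 3 at 72 h. Atp6v0d2, a d subunit known from osteoclasts and macrophages, went from 0.008 and 0 RPKM untreated to 0.360 and 0.755 at 72 h and 15.8 and 10.96 at 120 h (3.82). Its relative Atp6v0d1, of the 47, was at 112 and 95.2 RPKM at 120 h. Tcirg1, the a3 subunit, rose as well (2.40; 16.3 and 16.1 RPKM untreated, 32.4 and 47.6 at 72 h, 74.8 and 108 at 120 h), then Atp6v0b (1.39), and Atp6v1f was lowest (-0.24; 0.20 and not called with median-of-ratios scaling). The 7 osteoclast markers summed to 0.72 to 0.80 RPKM untreated and to 381 and 529 at 120 h, nearly all of it from Mmp9, which is also on the neutrophil list (0.105 and 0.055 RPKM untreated, 379.6 and 528 at 120 h; log2 fold change 8.70, called higher). The other 6, Calcr and Ctsk among them, were each at or under 0.869 RPKM in every library and did not pass the filter.
Sorting of enzymes to the lysosome gave 4 higher and 3 lower of 9 at 120 h (5 and 3 with median-of-ratios scaling) and 5 and 1 at 72 h, among them at 120 h Sort1 (3.05, sortilin), Nagpa (1.25, the uncovering enzyme of the mannose 6-phosphate tag) and Gnptab (-1.53, the phosphotransferase that starts this tag). Gnptab was at 20.2 and 20.6 RPKM untreated, 18.7 and 19.1 at 72 h and 6.42 and 6.44 at 120 h.
Of 15 MiT/TFE relatives and upstream regulators 7 were higher and 3 lower at 120 h (12 and 2 with median-of-ratios scaling). Tfec (2.64), Mitf (2.55) and Fnip2 (1.83), a partner of folliculin, were highest and Rragb (-1.32), a Rag GTPase of nutrient sensing, lowest. Tfec, a family member of macrophages, was at 3.44 and 3.64 RPKM untreated, 6.495 and 6.21 at 24 h, 17.2 and 12.2 at 40 h, 85.3 and 81.9 at 72 h and 34.1 and 21.7 at 120 h, so its peak was in the 72 h group, in which Tfeb and Tfe3 were not called. Of 22 autophagy and fusion genes 10 were higher and 4 lower at 120 h (18 and 3 with median-of-ratios scaling), with Atg7 (1.77), Rab7 (1.13) and Map1lc3a (1.11) highest and Vps16 (-1.10), of the HOPS tethering complex, lowest. At 72 h that list had 4 higher and 8 lower.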

How the data were processed

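RNA of 10 cultured cell libraries was sequenced after TruSeq preparation, per the labels' protocols. The authors deposited RPKM values per Ensembl transcript, and STAR and GRCm38 are named in the submitters' processing notes. How reads were counted, and whether strand was used, is not given in the sources used here. Of 79535 transcripts 77720 matched GENCODE M21 by ID, and each of 26206 genes was given 1 principal transcript. The main test was limma 3.58.1 in R 4.3.3 on log2(RPKM + 1), over the 12989 genes at 1 RPKM or more in at least 2 libraries, with all 10 libraries in 1 fit, a mean-variance trend and Benjamini-Hochberg adjustment (called: adjusted p under 0.05). It was tested on simulated data. Depth was 173621000 to 204384000 reads a library, from whole reads recovered from the RPKM of short transcripts, and 3 reads are the least taken as detection. Alternatives were other pseudocounts, filters, scalings, library subsets, array weights, a replicate block, the longest transcript and voom on recovered reads. Genes named with values were those with the largest changes in each role, and those that changed least or in the opposite direction. The 47 genes, the pathway lists and the marker lists were chosen with earlier results of these data known. Promoter sequences are from RefSeq, GRCm38.p6. A ratio of partner genes and a marker that had been planned are not reported here.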

Additional observations from a re-analysis of the deposited data

Results flagged for a closer look

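In 3 genes the change from untreated cells had one direction in a group with E2 returned and the other without E2 for 120 h. Ctsl was lower at 40 h (-0.70) and higher at 120 h (2.57), 3.27 apart on the log2 scale, and this difference was not tested. Ctsl at 72 h (-0.65) and at 120 h (2.57) were 3.22 apart, and the direct comparison of the 2 groups gave a limma adjusted p of 1.07e-06. Lgmn was lower at 40 h (-1.06) and higher at 120 h (2.76), 3.83 apart, a difference that was not tested. Npc2 was lower at 72 h (-0.41) and higher at 120 h (0.90), 1.31 apart, with a limma adjusted p of 2.46e-06 between the groups. The changes share the untreated libraries, and the 40 h calls of Ctsl and Lgmn and the 72 h call of Ctsl were each lost when some libraries were left out, as given above.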

How the results depend on the processing

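Called lysosome genes at 120 h against untreated cells numbered 44, and 43 to 45 with 1 library left out. Between 120 h and 72 h they numbered 42 (39 to 43), at 72 h 28 (19 to 30), at 24 h 0 under every setting, and between 72 h and 40 h 25 (16 to 35, the lowest without 40 h library 1). The share of all genes called under each setting is not given beside these counts or the 40 h counts that follow. None of them is therefore read as particular to the lysosome genes. At 40 h the count of 2 was the least stable. It was 1 with a pseudocount of 0.1, 0 with no filter on low values, 1 with median-of-ratios scaling, 0 with quantile normalization, 15 with only the 2 groups compared, 11 without the 120 h group, 19 with array weights, 3 with voom on recovered reads, and 0 to 11 with 1 library left out; the cause was not tested. With median-of-ratios scaling the direction turned for Gm2a (0.30) at 120 h against untreated cells, and for Gusb (0.41), Gla (0.15) and Atp6v1h (0.40) at 120 h against 72 h, and this scaling raises the 120 h libraries. Arsb at 120 h against 72 h turned to -0.23 without 120 h library 1 (0.65 without library 2). Replicate numbers were not shown to pair the libraries: correlations of the deviations were all positive, from 0.034 to 0.64, and 2 of them, those of untreated cells with 40 h and with 72 h, were under 0.1. With the replicate block the counts were 44 at 120 h, 0 at 24 h, 5 at 40 h, 28 at 72 h, 27 between 72 h and 40 h, and 42 between 120 h and 72 h. Of the 46 genes, the call and direction held under every setting run for 40 at 120 h, 46 at 24 h, 27 at 40 h and 31 at 72 h. They held for 25 between 72 h and 40 h and for 35 between 120 h and 72 h. With 2 libraries a group, and wider spread at 120 h, small differences were not resolved.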

Other observations

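In the list of genes that sort enzymes to the lysosome, 5 of the 8 with a RefSeq promoter window held CACGTG (62.5%). The share was 34.1% of the 41 lysosome genes and 12.1% of the 8859 tested genes with a window. Sorting was the highest of the pathway lists. The others had 33.3% (MiT/TFE relatives and regulators), 23.5% (autophagy and fusion), 20% (other hydrolases), 16.7% (other pump subunits) and 6.67% (other membrane proteins). These are descriptions of the windows, and the differences were not tested.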
